A study of Mus musculus with 12 samples.

Results

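The genes described here are 10 imprinted genes of a growth network, H19, Dlk1, Meg3, Peg3, Mest, Plagl1, Ndn, Grb10, Peg10 and Zim1, taken by name from the 49315 genes counted in 12 RNA-seq libraries of mouse adult fibroblasts (MAFs), and all 10 had enough reads to be tested. The MAFs were primary cells grown from the ears of adult female mice, either wild-type (WT) C57BL/6 animals or Bmal1 -/- animals (KO), which lack the circadian clock factor BMAL1 in every cell and whose strain background was not stated. Control cells of both genotypes were sham irradiated and senescent cells of both received 20 Gy of X-rays. The authors cultured irradiated cells for some weeks after the X-rays. All 4 groups were kept at 3% O2, treated with 100 nM dexamethasone, which resets the clock, and collected 12 h after dexamethasone. Each group (WT control, WT senescent, KO control, KO senescent) held 3 libraries. Whether the 3 came from separate animals or cultures was not stated, so p-values here measure the spread between these libraries, which may be technical.

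An imprinted gene is read mainly from a single parental copy, and the choice of copy is kept by DNA methylation at a control region that several neighbouring genes can share. Many imprinted genes act on growth: they are abundant in the embryo and the placenta, and most are turned down after birth as tissues stop growing. The zinc finger factor PLAGL1 and the noncoding RNA H19 are both known to influence the expression of other imprinted genes, which is why these genes are spoken of as a network. The counts used here do not separate the parental copies, and methylation was not measured.

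The stretches before start sites of Mest, Dlk1 and Plagl1 are shown. Mest and Dlk1 were the genes whose levels in senescent cells differed between genotypes with a fall in KO. Of the 8 genes with a sequence to search, Plagl1 alone carried the E-box CACGTG, the DNA word that BMAL1 with its partner CLOCK binds. Sequences are from RefSeq (GRCm38.p6), 250 bases each, written 5′ to 3′ on the gene's strand. Capitals mark CG pairs, the sites that can be methylated, in Mest and Dlk1, and the E-box in Plagl1.
Mest promoter (chr6:30737800-30738049, plus strand): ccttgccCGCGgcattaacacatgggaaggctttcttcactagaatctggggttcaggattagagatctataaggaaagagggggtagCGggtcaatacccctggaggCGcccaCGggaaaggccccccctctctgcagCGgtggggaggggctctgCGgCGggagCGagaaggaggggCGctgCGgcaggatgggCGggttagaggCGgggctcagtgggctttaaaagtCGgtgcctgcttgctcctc
Dlk1 promoter (chr12:109452573-109452822, plus strand): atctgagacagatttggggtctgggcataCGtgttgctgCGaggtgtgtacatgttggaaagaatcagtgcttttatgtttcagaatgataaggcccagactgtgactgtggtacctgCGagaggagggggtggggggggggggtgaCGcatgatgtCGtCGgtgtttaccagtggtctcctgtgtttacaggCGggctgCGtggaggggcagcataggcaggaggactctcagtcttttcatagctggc
Plagl1 promoter (chr10:13090582-13090831, plus strand): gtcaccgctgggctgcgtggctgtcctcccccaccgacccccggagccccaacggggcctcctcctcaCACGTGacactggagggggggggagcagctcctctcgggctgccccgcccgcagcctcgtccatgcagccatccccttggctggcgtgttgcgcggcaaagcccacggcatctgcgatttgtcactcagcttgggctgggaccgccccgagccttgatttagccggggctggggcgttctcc

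RefSeq windows of 300 bases (250 before a start site and 50 after it) were found for 8 of the 10 genes, 12 windows in all, and none for H19 and Peg10. CACGTG was in 1 of these 12 windows, against 7.15% of all 32851 windows. It began 182 bases before the Plagl1 start site of that window, which lies inside the gene as annotated here. The AP-1 word TGACTCA, searched on both strands, was in 0 of the 12 and in 5.2% of all windows. A match is only a run of letters, and binding was not measured here. The 250 bases shown held 14 CG pairs for Mest and 8 for Dlk1. The 300-base windows around the same start sites held 17, more than 68.6% of all windows, and 9, against a median of 7 over all windows, and a further Mest window, at another start site, held 8.

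H19 and Mest each carry a microRNA hairpin, which is cut from the host transcript or its intron into the mature forms below. They are shown because a change in the host is often read as a change in the microRNA. Capitals mark the seed, bases 2 to 8, and no 2 of these 4 seeds were the same.
mmu-miR-675-5p (chr7:142577112-142577133, minus strand): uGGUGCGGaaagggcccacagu
mmu-miR-675-3p (chr7:142577078-142577099, minus strand): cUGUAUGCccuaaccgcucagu
mmu-miR-335-5p (chr6:30741314-30741336, plus strand): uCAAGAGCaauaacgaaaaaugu
mmu-miR-335-3p (chr6:30741354-30741375, plus strand): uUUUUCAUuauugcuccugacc
The hairpin gene Mir675 had 0 counts over the 12 libraries together and Mir335 had 44. Libraries of poly(A) RNA do not capture mature microRNAs, so the values below are those of the host transcripts.

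Each library held between 23923030 and 31736083 counts. Levels are given as counts per 1e6 counts of the library (CPM) on totals scaled by TMM, and 3 counts, taken as the detection floor, equalled 0.101 to 0.135 CPM. Arntl, the gene of BMAL1, was at 29.8 to 37.4 CPM in WT libraries and at 11.8 to 27.5 CPM in KO libraries, with no overlap. These counts do not separate the deleted part of Arntl from the rest. The 8 fibroblast markers, Fn1 and the collagen I chains among them, summed to 38200 to 71800 CPM. Each genotype was deposited as a table of its own, so a difference between KO and WT and a difference in how the tables were made cannot be told apart.

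The 10 genes did not move as a block in WT senescent cells, but most of the 10 were lower in KO senescent cells than in KO control cells. A gene is said to have passed, risen or fallen where the adjusted p of edgeR's quasi-likelihood test, corrected over 17416 genes, was under 0.05, and is called a differentially expressed gene (DEG) where its log2 fold change was also over 1 in size. In WT, 3 of the 10 genes rose (Peg3, Ndn, Zim1), 4 fell (Meg3, Mest, Grb10, Peg10) and 3 did not pass, where 29.2% of all genes rose and 27.0% fell. In KO, 2 rose (Ndn, Zim1), 7 fell (H19, Dlk1, Meg3, Mest, Plagl1, Grb10, Peg10) and Peg3 did not pass, where 28.5% of all genes rose and 28.6% fell. The median of their log2 fold changes stood at 0.0 in WT and at -0.72 in KO, beside medians of 0.025 and -0.003 over all genes. Zim1 was the only one of the 10 that was a DEG in WT, where 17.4% of all genes were, and Zim1 and Mest were DEGs in KO, where 18.8% were. The groups did not overlap for 7 of the 10 genes in WT (63.2% of all genes) and for 9 of the 10 in KO (61.6%). Of 8 further network genes, described below, 5 rose and 2 fell in KO, so the fall of most of the 10 does not extend to them.

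The senescence response was fitted lower in KO than in WT for all 10 genes, for Ndn by 0.01 only, a difference that turned to 0.02 higher with DESeq2. The difference itself, the interaction of genotype and senescence, passed for 6 of them (H19, Dlk1, Meg3, Peg3, Mest, Grb10), each with the lower response in KO, where 11.7% of all genes passed in that direction and 9.24% in the other. The median interaction of the 10 was -0.53 on the log2 scale, beside -0.026 over all genes. Mest was the only DEG of the 10, where 3.66% of all genes were. The count of passes depended on single libraries: it was 2 without WT control 1, WT control 3, WT senescent 3, KO control 2 or KO control 3, 3 without WT senescent 1 or 2, 4 without KO senescent 1 or 3, 5 without KO senescent 2, 6 without KO control 1 and 7 without WT control 2. Dlk1 and Grb10 passed in every one of these 12 fits. The count was 6 when WT control 3 and KO control 1, in which most of the 10 genes were at their group's lowest, were left out together.

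Between genotypes, 5 of the 10 genes were higher in KO control than in WT control cells (H19, Meg3, Ndn, Grb10, Zim1) and none that passed was lower, where 8.07% of all genes were higher and 4.96% lower. Zim1 was the 1 DEG of the 10, where 2.54% of all genes were DEGs. The count of passes between control groups ran from 3 to 7 over single omissions. With only the control groups fitted 3 passed, all higher in KO. With DESeq2 7 passed, 6 of them higher in KO, and Mest was lower. In senescent cells Ndn was higher in KO and Dlk1 and Mest were lower, where 11.9% of all genes were higher and 11.8% lower, and Mest was the 1 DEG, where 3.48% of all genes were. The groups did not overlap for 6 of the 10 genes in control cells (25.9% of all genes) and for 6 in senescent cells (42.0%). These comparisons share libraries with the senescence comparisons: the KO control libraries, in which 5 genes stood above WT, are also the reference for the fall in KO.

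**Figure D1:**
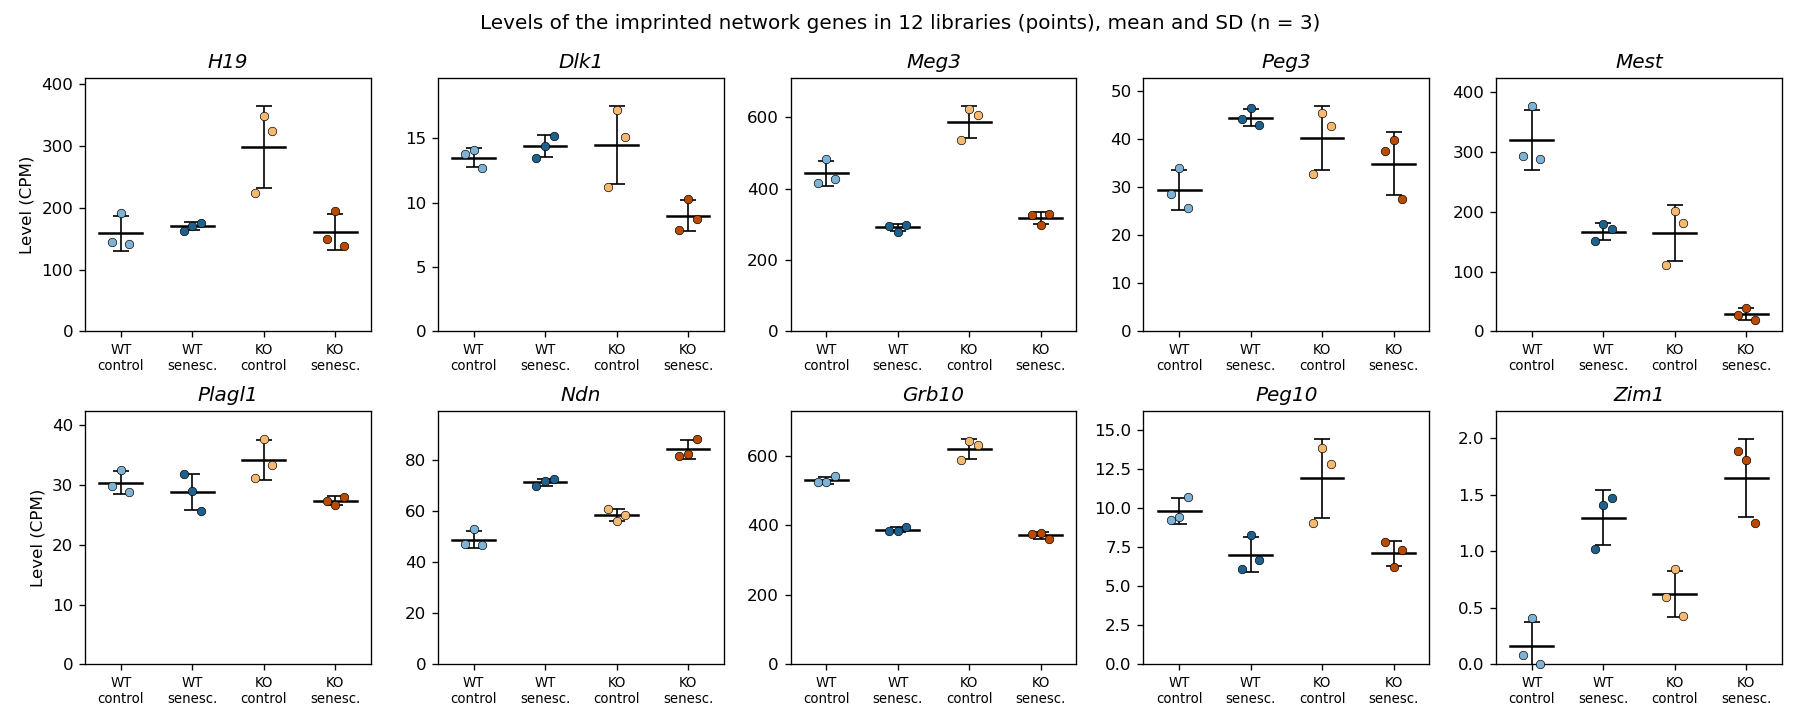
Level in CPM (vertical axes, each from 0) of the 10 genes in every library (points), with the mean (line) and SD (bars) of the 3 libraries of each group; the lower bar of Zim1 in WT control cells is cut at 0. H19 is high in the 3 KO control libraries alone, and Mest falls from 320 CPM in WT control to 28.8 CPM in KO senescent cells.

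**Figure D2:**
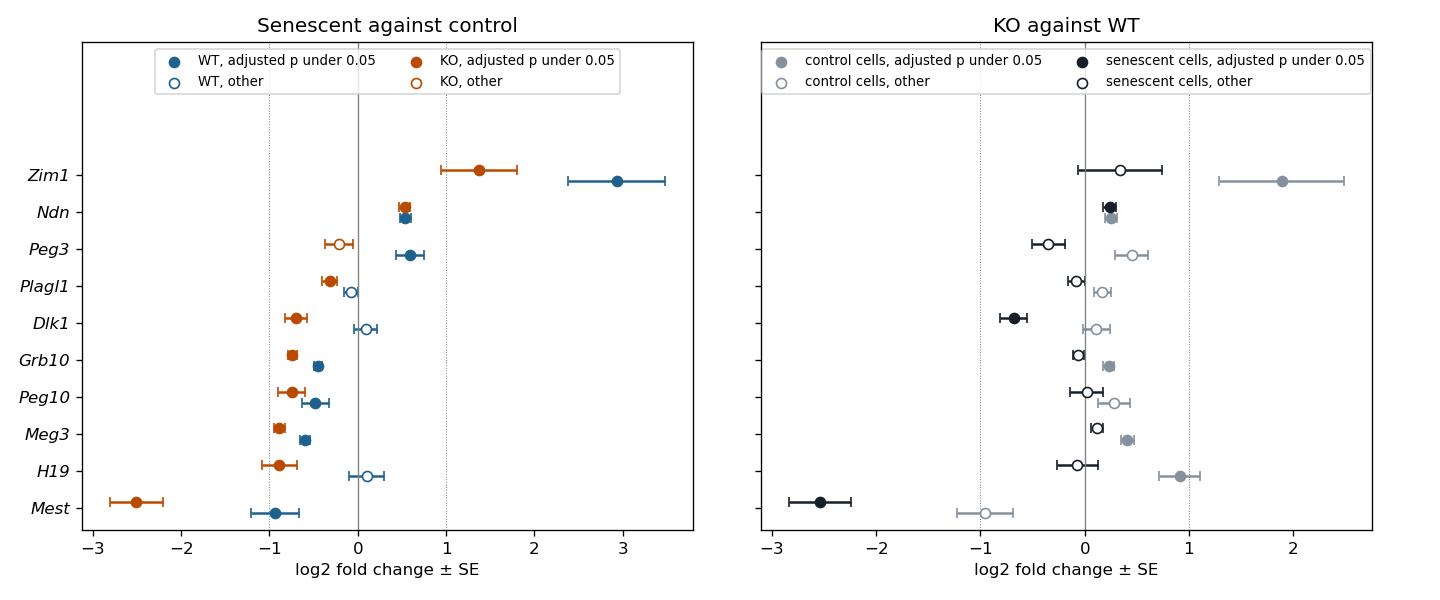
Fitted log2 fold change with its SE for senescent against control cells in each genotype (left) and for KO against WT in each state (right); filled points have an adjusted p under 0.05 and dotted lines mark a change of 1 in size. In the left panel every KO point lies to the left of its WT point, by 0.01 for Ndn (0.02 to the right with DESeq2) and by 1.58 for Mest.

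H19 is a noncoding RNA read from the maternal copy of the H19-Igf2 domain, and its transcription is the counterpart of that of the growth factor gene Igf2 on the paternal copy. The gene (ENSMUSG00000000031) lies at chr7:142575529-142578143 on the minus strand of GRCm38. The libraries gave 144, 191 and 141 CPM in the WT control libraries, 163, 171 and 175 in the WT senescent, 224, 349 and 324 in the KO control and 150, 194 and 138 in the KO senescent ones. The 3 KO control libraries stood above all 9 others, and the other groups overlapped one another. H19 therefore fell by 0.89 ± 0.20 on the log2 scale (SE, adjusted p = 0.00428) in KO, while its WT response of 0.10 ± 0.20 (adjusted p = 0.711) did not pass. In control cells it was higher in KO by 0.91 ± 0.20 (adjusted p = 0.0184), and in senescent cells the difference of -0.07 ± 0.20 did not pass (adjusted p = 0.833). The interaction was -0.99 ± 0.28 (adjusted p = 0.0387). It missed the threshold without any of 9 of the 12 libraries (all but WT control 2, KO control 1 and KO senescent 2), with adjusted p up to 0.0912 and values of -1.16 to -0.86, and also with no filter on low counts (adjusted p = 0.0689). The difference between control groups missed it without WT control 1, WT control 3, KO control 2 or KO control 3, with adjusted p up to 0.0727 and values of 0.79 to 1.09, and also with only the control groups fitted (0.91, adjusted p = 0.0874).

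Igf2, which lies 72.6 kb from H19 and shares its control region and enhancers, moved otherwise. The WT libraries went from 9.29, 10.7 and 9.35 CPM (control) to 295, 299 and 284 CPM (senescent), and the KO libraries from 14.7, 19.9 and 20.7 CPM to 357, 407 and 316 CPM. The rise was 30.0-fold in WT (log2 4.90 ± 0.13) and 19.6-fold in KO (log2 4.29 ± 0.12), while H19 did not pass in WT and fell in KO. Igf2 and H19 were both higher in KO control than in WT control cells by a ratio of means of 1.88. Further along the chromosome, Cdkn1c, which encodes a cyclin-dependent kinase inhibitor, rose in WT (log2 0.63 ± 0.10) and fell in KO by 0.28 ± 0.10, an interaction of -0.90 ± 0.14 (adjusted p = 0.000132). Kcnq1ot1, the noncoding RNA that silences Cdkn1c on the paternal copy, fell by 0.79 (WT) and 0.72 (KO). Slc22a18, a transporter gene, rose in both by 2.35 and 1.63. In the same stretch Ascl2 rose by 2.24 (WT) and 1.59 (KO) and Phlda2 by 2.71 and 1.67, at group means of up to 1.75 CPM. The neighbours named here and below are imprinted genes of the lists from the same stretches of chromosome, chosen after their values had been seen. Not every such gene is named.

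Dlk1, Meg3, Rian, Mirg, Rtl1 and Dio3 form a domain on chromosome 12 in which the noncoding RNAs Meg3, Rian and Mirg are read from the maternal copy and the protein-coding genes from the paternal one. Meg3 (ENSMUSG00000021268, chr12:109541001-109571726, plus strand) was at 417, 484 and 428 CPM in the WT control libraries, 296, 280 and 299 in the WT senescent, 537, 622 and 606 in the KO control and 327, 299 and 328 in the KO senescent ones. Each control library was above every senescent library of either genotype. Meg3 fell in WT by 0.60 ± 0.06 (adjusted p = 6.41e-08) and in KO by 0.89 ± 0.06 (adjusted p = 1.49e-10). In control cells it was higher in KO by 0.41 ± 0.06 (adjusted p = 0.000127), and in senescent cells 0.12 ± 0.06 did not pass (adjusted p = 0.176). The interaction, -0.29 ± 0.09 (adjusted p = 0.0275), missed the threshold without any of 7 libraries (WT control 1 and 3, WT senescent 1 and 3, KO control 2 and 3, KO senescent 2), with adjusted p up to 0.0895. Rian fell with it, by 0.88 ± 0.06 in WT and 0.92 ± 0.06 in KO, and so did Mirg, by 0.82 ± 0.13 and 1.00 ± 0.12, and neither interaction passed (adjusted p = 0.793 and 0.502).

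Dlk1 encodes a membrane protein of the EGF-repeat family that is related to Notch ligands and is known for holding back fat cell differentiation. Dlk1 (ENSMUSG00000040856, chr12:109452823-109463336, plus strand) was at 13.8, 14.1 and 12.7 CPM in the WT control libraries, 13.5, 14.4 and 15.2 in the WT senescent, 11.2, 17.2 and 15.1 in the KO control and 7.91, 10.3 and 8.75 in the KO senescent ones. The KO senescent libraries lay below the other 9. Dlk1 fell by 0.70 ± 0.13 in KO (adjusted p = 0.00012), and its WT response of 0.09 ± 0.13 did not pass (adjusted p = 0.594). The interaction was -0.78 ± 0.18 (adjusted p = 0.00458), and in senescent cells Dlk1 was lower in KO by a log2 change of -0.68 ± 0.13 (adjusted p = 0.000657). Dio3, the gene of the enzyme that inactivates thyroid hormone, lies 816 kb from Dlk1 and was likewise lowest in KO senescent cells. It was at 5.07, 4.64 and 4.06 CPM in the WT control libraries, 5.07, 5.45 and 5.79 in the WT senescent, 3.76, 4.82 and 4.81 in the KO control and 0.888, 2.27 and 0.811 in the KO senescent ones. Its interaction was -1.99 ± 0.37 (adjusted p = 0.000807). Rtl1, also read from the paternal copy, was at 1.86 to 2.63 CPM in the group means and passed in neither senescence comparison (adjusted p = 0.76 in WT and 0.109 in KO).

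Mest, named for its expression in mesoderm, encodes a hydrolase-like membrane protein linked to fat cell size, and its fitted senescence changes were larger in size than those of the other 8 genes with more than a few counts. Mest (ENSMUSG00000051855, chr6:30723547-30748465, plus strand) was at 293, 378 and 289 CPM in the WT control libraries, 151, 180 and 172 in the WT senescent, 111, 201 and 181 in the KO control and 27.0, 39.6 and 19.9 in the KO senescent ones. WT control libraries were above all others and KO senescent libraries below all others, and the groups between them overlapped. Mest fell by 0.94 ± 0.27 in WT, 1.91-fold (adjusted p = 0.0173), and by 2.51 ± 0.30 in KO, 5.71-fold (adjusted p = 9.25e-05). The WT fall missed the threshold without WT control 2 (-0.80, adjusted p = 0.0584) or WT senescent 1 (-0.87, adjusted p = 0.0605). In senescent cells Mest was 5.81-fold lower in KO than in WT (log2 -2.54 ± 0.30, adjusted p = 0.000387). In control cells the difference of -0.96 ± 0.27 did not pass (adjusted p = 0.0548), but it passed without KO senescent 2 or 3 (adjusted p = 0.0379 and 0.041), with DESeq2 (adjusted p = 0.00745) and on library totals without TMM (adjusted p = 0.0492). The interaction, -1.58 ± 0.40 (adjusted p = 0.0244), missed the threshold without any of 8 libraries (WT control 1 and 3, WT senescent 2 and 3, KO control 2 and 3, KO senescent 1 and 3), with adjusted p up to 0.0625 and values of -1.88 to -1.37. The exons of Copg2, a neighbour on the opposite strand, cover 23.1% of the exon bases of Mest, and the use of strand in counting is not given in the sources used here. Copg2 itself was at 53.8 to 71.5 CPM in the group means and passed with senescence in neither genotype (0.11 ± 0.07 and 0.13 ± 0.07). It was lower in KO than in WT by a log2 change of -0.30 ± 0.07 in control cells (adjusted p = 0.00709) and -0.28 ± 0.07 in senescent cells (adjusted p = 0.00542). Mest was fitted lower in KO in both states too, but in control cells its difference did not pass. The part of Copg2 reads in the Mest counts was not tested.

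The summed level of cartilage markers, like that of Mest, was highest in WT control and lowest in KO senescent cells. The 8 cartilage markers, Col2a1 and Acan among them, summed to 7690, 9160 and 7360 CPM in the WT control libraries, 1950, 2060 and 2250 in the WT senescent, 4790, 6650 and 6090 in the KO control and 684, 708 and 612 in the KO senescent ones. Within groups, the order of the 3 libraries in this sum was shared by H19 in all 4 groups, by Mest, Peg3 and Dlk1 in 3, by Plagl1, Ndn, Grb10 and Zim1 in 2 and by Meg3 and Peg10 in 1. How many of all genes share this order was not counted. The fibroblast sum had the same order in the KO control libraries (59000, 71800 and 69000 CPM) and a different order in the other groups. Col2a1 and Acan, at means of 4950 and 2050 CPM in WT control cells, held most of the sum. By gene, 7 of the 8 markers fell in each genotype, where 27.0% of all genes fell in WT and 28.6% in KO. Comp rose in WT (0.59 ± 0.16, adjusted p = 0.0117) and did not pass in KO. All 8 passed in the interaction with the lower response in KO (11.7% of all genes), and all 8 were lower in KO senescent than in WT senescent cells (11.8%). Between control groups only 2 of the 8 passed, Col2a1 and Cnmd, both lower in KO (4.96% of all genes), and Acan stood at 0.02 ± 0.11. No marker of the list was at 0 in any group. The gene closest to Mest over the 12 libraries, Col27a1, encodes a collagen of cartilage (root mean square distance 0.337 in log2 CPM about each gene's mean, against 1.338 for Mest about its own mean). Fewer cells of a type and less RNA per cell cannot be told apart in these bulk libraries, and the part of the cartilage markers in the values of Mest, H19 and the others was not tested. Between groups, H19 and Meg3 were highest in KO control cells, where the sum was below that of WT control cells, and Ndn was highest in KO senescent cells, where the sum was lowest.

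**Figure D3:**
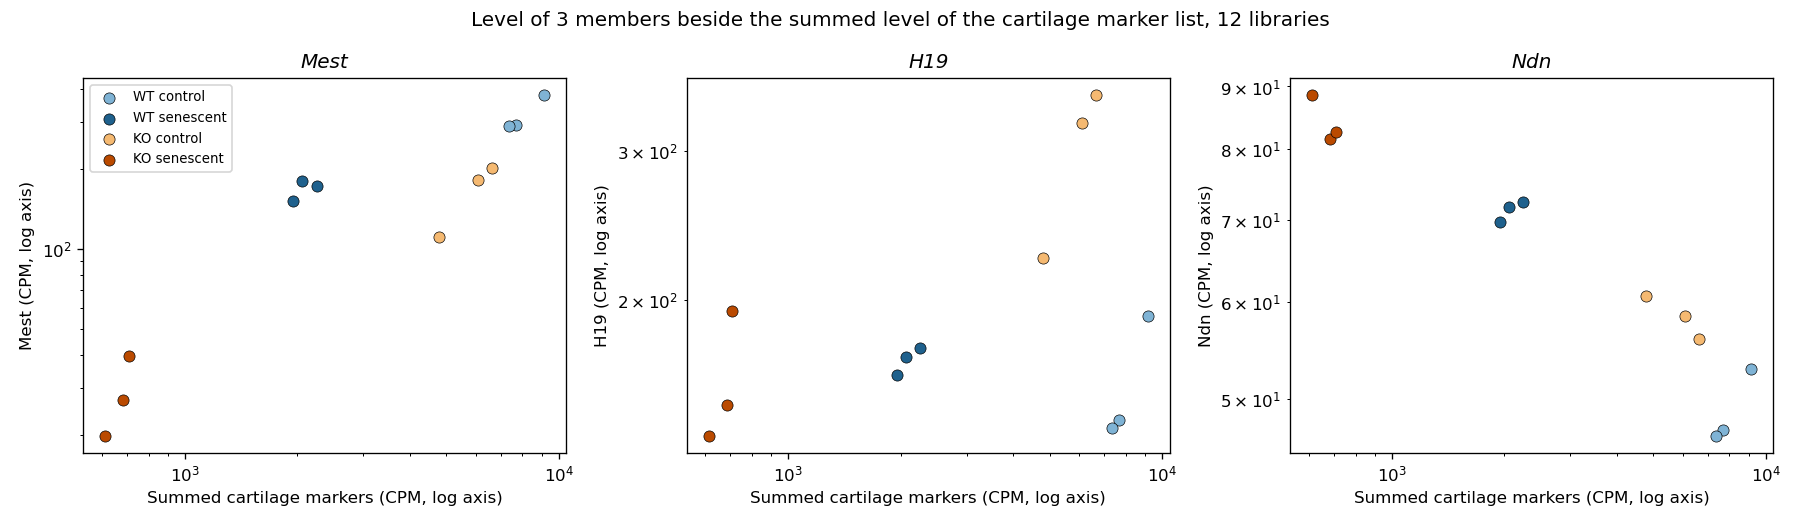
Level of Mest, H19 and Ndn (CPM, log axes) against the summed level of the 8 cartilage markers (CPM, log axes) in the 12 libraries, coloured by group. Mest is lowest and the markers are lowest in the same 3 KO senescent libraries, and Ndn is highest there. H19 is highest in KO control cells but orders the libraries within each of the 4 groups as the marker sum does. How many of all genes do so was not counted.

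Grb10 encodes an adaptor protein that binds the insulin and IGF1 receptors and restrains their signal. Grb10 (ENSMUSG00000020176, chr11:11930508-12038683, minus strand) had the highest CPM of the 10 genes in every group, and its libraries differed little within a group. The values were 524, 523 and 541 CPM in the WT control libraries, 384, 382 and 394 in the WT senescent, 587, 643 and 629 in the KO control and 376, 377 and 360 in the KO senescent ones. No 2 groups of a comparison overlapped. Grb10 fell by 0.45 ± 0.05 in WT (1.37-fold, adjusted p = 6.1e-08) and by 0.74 ± 0.05 in KO (1.67-fold, adjusted p = 2.78e-11), with an interaction of -0.29 ± 0.07 (adjusted p = 0.00473). It was higher in KO control than in WT control cells by 0.23 ± 0.05 (adjusted p = 0.00264), and in senescent cells -0.06 ± 0.05 did not pass (adjusted p = 0.411).

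Peg3, a large zinc finger protein with roles in growth and maternal behaviour, and Zim1, a zinc finger gene of the same domain, are read from opposite parental copies and lie 7.44 kb apart on chromosome 7. Peg3 (ENSMUSG00000002265, chr7:6703892-6730431, minus strand) was at 28.6, 33.9 and 25.7 CPM in the WT control libraries, 44.0, 46.3 and 42.9 in the WT senescent, 32.6, 45.3 and 42.6 in the KO control and 37.4, 39.7 and 27.4 in the KO senescent ones. The WT groups did not overlap and the KO groups did. Peg3 rose in WT by 0.59 ± 0.16 (1.51-fold, adjusted p = 0.00858), and its KO response of -0.21 ± 0.16 did not pass (adjusted p = 0.282). The interaction of -0.80 ± 0.22 (adjusted p = 0.0285) missed the threshold without any of 7 libraries (WT control 1 and 3, each WT senescent library, KO control 2 and 3), with adjusted p up to 0.0702. In control cells the difference between genotypes, 0.45 ± 0.16 (adjusted p = 0.101), passed without KO control 1 (0.58, adjusted p = 0.0236) or KO senescent 3 (0.45, adjusted p = 0.02) and with DESeq2 (0.44, adjusted p = 0.0107) or no filter on low counts (0.46, adjusted p = 0.0159). In senescent cells the difference, -0.35 ± 0.16 (adjusted p = 0.136), passed with DESeq2 (-0.33, adjusted p = 0.0493) and with no filter (-0.36, adjusted p = 0.0474).

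Zim1 (ENSMUSG00000002266, chr7:6671269-6696450, minus strand) was near the detection floor in WT control cells, with 2, 10 and 0 counts. The 0 of WT control 3 allows a level of up to 0.135 CPM. The other libraries held 30, 42 and 38 counts (WT senescent), 15, 25 and 10 (KO control) and 49, 51 and 37 (KO senescent), or 1.02 to 1.47, 0.429 to 0.842 and 1.25 to 1.89 CPM. The control and senescent libraries of a genotype did not overlap. Zim1 rose by 2.93 ± 0.55 in WT (adjusted p = 0.00012) and by 1.37 ± 0.43 in KO (adjusted p = 0.0102). The WT value ran from 2.39 without WT control 3 to 4.79 without WT control 2, the library with the 10 counts. Without WT control 2 the interaction, -1.55 ± 0.73 (adjusted p = 0.142), passed as well, at -3.42 (adjusted p = 0.00634). The KO excess in control cells, 1.89 ± 0.60 (adjusted p = 0.0404), missed the threshold without any of 7 libraries (WT control 1 and 3, WT senescent 2 and 3, KO control 1 and 2, KO senescent 1), with adjusted p up to 0.172 and values of 1.37 to 3.76 over all 12 omissions, and also with only the control groups fitted (1.88, adjusted p = 0.132) and with WT control 3 and KO control 1 left out together (1.41, adjusted p = 0.114). Fold changes from so few counts depend on the prior count of the fit.

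Ndn, which encodes necdin, a protein that binds E2F factors and p53 and is known for restraining cell division, rose by nearly the same amount in both genotypes. Ndn (ENSMUSG00000033585, chr7:62346569-62350262, plus strand) was at 47.2, 52.9 and 46.7 CPM in the WT control libraries, 69.7, 71.7 and 72.5 in the WT senescent, 60.7, 56.0 and 58.5 in the KO control and 81.6, 82.6 and 88.5 in the KO senescent ones. None of the 4 groups overlapped another. The rise was 0.54 ± 0.06 in WT (1.46-fold, adjusted p = 9.08e-08) and 0.53 ± 0.06 in KO (1.44-fold, adjusted p = 1.03e-07), and KO was above WT by 0.25 ± 0.06 in control cells (adjusted p = 0.00628) and by 0.24 ± 0.06 in senescent cells (adjusted p = 0.00383). The former missed the threshold with WT control 3 and KO control 1 left out together (0.20, adjusted p = 0.0554). The interaction was -0.01 ± 0.08 (adjusted p = 0.933). Of its neighbours in the domain that is silent on the maternal copy, Peg12 fell in both genotypes, by 0.59 ± 0.15 and 0.56 ± 0.15, Snrpn, 2210 kb away, rose by 0.41 ± 0.11 in WT and 0.98 ± 0.11 in KO, and Magel2 had 0 to 4 counts per library.

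Plagl1, the zinc finger factor at the head of the network, passed in KO senescence and in no other comparison. Plagl1 (ENSMUSG00000019817, chr10:13060504-13131694, plus strand) was at 29.9, 32.5 and 28.8 CPM in the WT control libraries, 31.8, 29.0 and 25.7 in the WT senescent, 31.2, 37.8 and 33.4 in the KO control and 27.4, 26.6 and 28.0 in the KO senescent ones. The KO groups did not overlap and the WT groups did. Plagl1 fell by 0.32 ± 0.08 in KO (1.25-fold, adjusted p = 0.00238), which missed the threshold on library totals without TMM (-0.17, adjusted p = 0.0982). Its WT response (-0.08 ± 0.08, adjusted p = 0.463) and the interaction (-0.25 ± 0.12, adjusted p = 0.155) did not pass, nor did KO against WT in control (0.17 ± 0.08) or senescent cells (-0.08 ± 0.08).

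Peg10, a gene derived from a retrotransposon and needed for the placenta, fell in both genotypes. Peg10 (ENSMUSG00000092035, chr6:4747306-4760517, plus strand) was at 9.25, 9.41 and 10.7 CPM in the WT control libraries, 6.09, 8.25 and 6.68 in the WT senescent, 9.04, 13.8 and 12.8 in the KO control and 7.80, 6.24 and 7.29 in the KO senescent ones. Every control library was above every senescent library of either genotype. The fall was 0.48 ± 0.15 in WT (adjusted p = 0.0114) and 0.75 ± 0.15 in KO (adjusted p = 0.000257), and the interaction (-0.26 ± 0.22, adjusted p = 0.426) did not pass. The WT fall missed the threshold without WT senescent 1 (-0.39, adjusted p = 0.0647) and on library totals without TMM (-0.31, adjusted p = 0.0897). In control cells the KO difference of 0.28 ± 0.15 (adjusted p = 0.24) passed without KO control 1 (0.45, adjusted p = 0.0342). Sgce, which starts 0.099 kb from Peg10 on the other strand and is also read from the paternal copy, rose in both genotypes, by 0.84 ± 0.08 in WT and 0.47 ± 0.07 in KO.

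**Figure D4:**
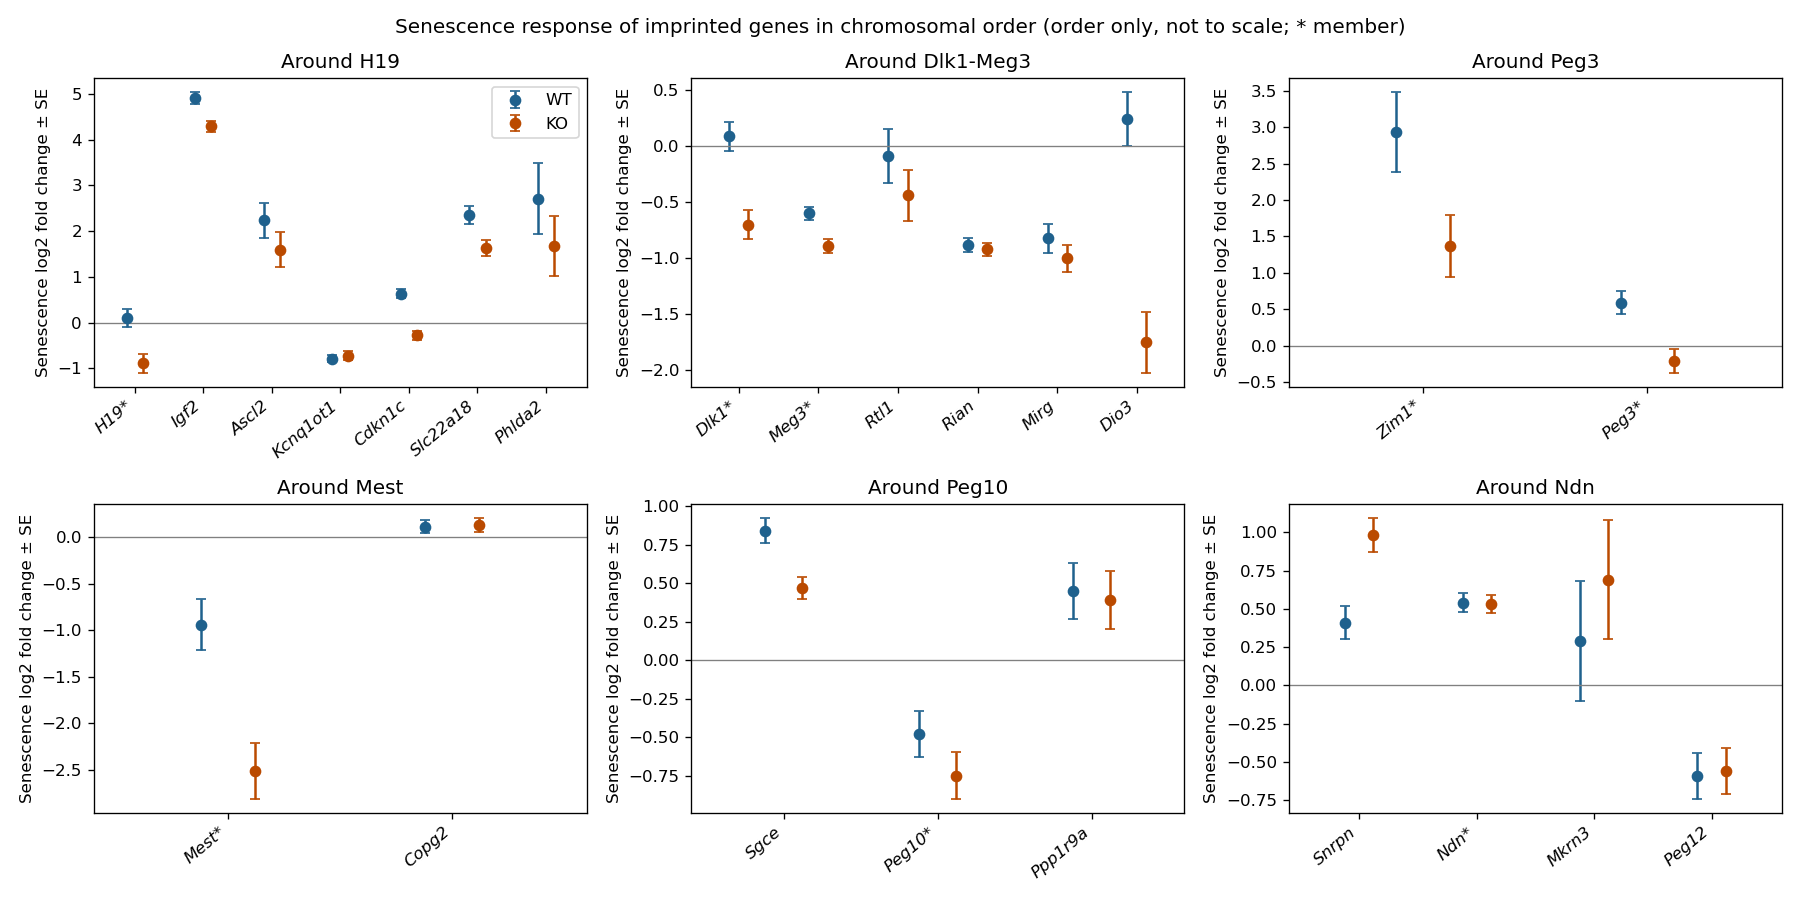
Fitted senescence log2 fold change with its SE in WT and KO for the tested imprinted genes around H19, Dlk1 and Meg3, Peg3, Mest, Peg10 and Ndn, in chromosomal order but not to scale; an asterisk marks one of the 10 genes. Igf2 stands at 4.90 and 4.29 beside H19 at 0.10 and -0.89, and Sgce and Peg10 lie on opposite sides of 0.

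Per kilobase of exon, which allows levels of different genes to be compared, the order in WT control cells was Mest (81.2 ± 12.7 CPM per kb, SD, n = 3), H19 (64.4 ± 11.5), Grb10 (58.3), Meg3 (24.5), Ndn (13.2), Plagl1 (3.89), Dlk1 (2.39), Peg3 (2.21), Peg10 (1.47) and Zim1 (0.0201). The libraries of Mest and H19, of H19 and Grb10, and of Dlk1 and Peg3 overlapped in this order. In KO senescent cells H19 was first at 65.5 CPM per kb and Mest was below Meg3 and Ndn at 7.31. Within groups, single libraries carried much of the spread: KO control 1 was the lowest of its group for 8 of the 10 genes and KO control 2 the highest for 9, and WT control 3 was the lowest for 7 and WT control 2 the highest for 8. The cartilage sum had the same extreme libraries, KO control 1 and 2 and WT control 3 and 2, in these groups. The fibroblast sum had the same extremes in KO control, and in WT control it was highest in WT control 2 and lowest in WT control 1. The part of these libraries and sums in the spread was not tested.

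Other genes of the network and other imprinted genes were counted as lists. Over all genes, 29.2% rose and 27.0% fell in WT, and 28.5% rose and 28.6% fell in KO. In the interaction 9.24% of all genes passed with the higher and 11.7% with the lower response in KO. Of 8 further network genes, 6 rose and 2 fell in WT and 5 rose and 2 fell in KO, with medians of 0.73 and 0.33, and 3 passed in the interaction (Igf2, Cdkn1c and Sgce), each with the lower response in KO. Besides Igf2, Dcn, the gene of the matrix proteoglycan decorin, rose 10.3-fold in WT and 10.9-fold in KO. Slc38a4, an amino acid transporter gene, fell by 2.27 (WT) and 2.36 (KO), and Gatm, which encodes an enzyme of creatine synthesis, rose by 1.31 in WT and 1.65 in KO at means under 3 CPM. Of 34 further imprinted genes, 27 were tested. In WT 12 rose and 6 fell, in KO 12 rose and 5 fell, and the interaction passed for 2 with the higher and 3 with the lower response in KO, beside medians of 0.31, 0.18 and -0.04. Impact, a regulator of translation under amino acid stress, rose 2.03-fold in WT and 1.94-fold in KO. Nap1l5, a nucleosome assembly gene, fell by 1.04 in WT, and its KO value of -0.36 did not pass.

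The genes that copy and protect the methylation of imprinted regions fell with senescence whichever the genotype. All 6 of this list (Dnmt1, Uhrf1, Zfp57, Zfp445, Trim28, Ctcf) fell in WT and in KO, with medians of -0.70 and -0.74, where 27.0% and 28.6% of all genes fell. Uhrf1, which brings the methyltransferase DNMT1 to newly copied DNA, went from 154, 127 and 163 CPM to 18.4, 20.1 and 18.8 CPM with senescence in WT, and from 151, 144 and 146 CPM to 13.8, 14.1 and 11.1 CPM in KO. Its interaction was -0.55 (adjusted p = 0.00749). Dnmt1 fell by 1.87 (WT) and 2.00 (KO). Both are also known as genes of dividing cells, and the methylation of imprinted regions was not measured.

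The tested genes with the pattern most like each of the 10 were sought among 10946 genes, as the root mean square difference in log2 CPM over the 12 libraries after centring. The closest pairs were Grb10 with Mmp14 (0.042) and Lamb2 (0.043), Ndn with Adprh (0.056) and Acvr1 (0.057), Plagl1 with Amz2 (0.061), Meg3 with Egln3 (0.083) and Anxa6 (0.086), and Dlk1 with Pak3 (0.089) and 1190002N15Rik (0.107). Next came Peg3 with Heg1 (0.106) and Sspn (0.109), Peg10 with Cdsn (0.148) and Dpysl2 (0.15), and H19 with Hr (0.15) and Lrrc75b (0.171). Mest, after Col27a1, was closest to Meltf (0.385), and Zim1, whose counts were few, to Fam180a (0.627) and Myh11 (0.629). No other of the 10 genes was among these.

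Markers of other cell types that ear tissue could hold were low beside the fibroblast and cartilage markers. Summed over a list, muscle markers were at 15.2 to 58.9 CPM, adipocyte markers at 31.5 to 70.7, Schwann cell markers at 9.69 to 33.0, keratinocyte markers at 10.2 to 19.8, macrophage markers at 6.24 to 14.0, endothelial markers at 1.94 to 8.14 and melanocyte markers at 0.943 to 5.71 CPM over the 12 libraries. Myod1 and Myog, which define muscle, were at 0 in all control libraries and had up to 4 and up to 8 counts in senescent ones. Of the 4 muscle markers tested, 2 rose with senescence in WT (Myh3, Des) and 3 in KO (Myh3, Des, Ckm), at group means of up to 2.18 CPM. In each genotype 1 fell, Acta1. The fibroblast sum was lower in senescent cells, 45400 to 47700 CPM in WT and 38200 to 45900 CPM in KO, than in control cells, 58500 to 62600 and 59000 to 71800 CPM. Fn1 alone was at a mean of 39900 CPM in WT control cells, where the mean sum was 60200 CPM. By gene, 3 of the 8 fibroblast markers rose in WT (Pdgfra, Lum, Thy1) and 4 fell, and in KO 1 rose (Thy1) and 6 fell. The part of these markers in the values of the 10 genes was not tested.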

How the data were processed

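RNA-seq counts of 12 libraries were used as deposited. The authors sequenced poly(A) RNA, trimmed reads with Trimmomatic 0.36, mapped them to GRCm38 with STAR 2.5.2b and counted unique reads in exons per gene with featureCounts, and the deposited raw counts were whole numbers in 2 tables, 1 per genotype. The annotation release and the use of strand are not given in the sources used here, so counts of genes with overlapping exons (Mest, H19, Meg3, Plagl1) are uncertain. Dropping reads that map to several places lowers the counts of genes with copies.

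Of 49315 identifiers, 49056 had a symbol and coordinates in GENCODE M21 (GRCm38), and each of the 10 genes matched 1 identifier. In R 4.3.3, edgeR 4.0.16 (filterByExpr, TMM, robust quasi-likelihood F-test, 1 mean per group over all 12 libraries) tested 17416 genes, with Benjamini-Hochberg adjustment over all of them. A DEG had an adjusted p under 0.05 and a log2 fold change over 1 in size. The SE was the size of the log2 fold change divided by the square root of F. The fit was tested on simulated data. Groups came from the deposited labels. Intervals of error cover the spread between libraries and counting only, since reads carried no molecular identifiers.

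The 10 genes, the lists and the tests were chosen with earlier results of these data known. All 10 genes were named. Of other lists, at most 4 genes per list were named, by size of change among DEGs of the senescence comparisons or the interaction whose mean reached 1 CPM. Some neighbours from the same stretches of chromosome were also named, with their values known. Similar patterns were sought among genes whose mean reached 5 CPM, with a prior count of 2. A gene that this rule gave is not reported here. Alternatives were DESeq2 1.42.0, other scaling factors, no filter, only the groups compared, replicate blocks, no fold threshold, each library left out and, chosen after seeing the data, WT control 3 and KO control 1 left out together.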

Additional observations from a re-analysis of the deposited data

Results flagged for a closer look

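For 6 of the 10 genes the senescence response differed between genotypes by a test of the difference itself, edgeR's quasi-likelihood test of the interaction adjusted over all genes, where 11.7% of all genes passed with the lower response in KO and 9.24% with the higher. The KO response less the WT response, on the log2 scale, was -1.58 for Mest (adjusted p = 0.0244), -0.99 for H19 (adjusted p = 0.0387), -0.80 for Peg3 (adjusted p = 0.0285), -0.78 for Dlk1 (adjusted p = 0.00458), -0.29 for Meg3 (adjusted p = 0.0275) and -0.29 for Grb10 (adjusted p = 0.00473). H19, Meg3 and Grb10 were higher in KO than in WT control cells and did not pass between genotypes in senescent cells, Dlk1 and Mest were lower in KO senescent cells, and Peg3 passed between genotypes in neither state, though it did in both with DESeq2 or with no filter on low counts. The passes of H19, Meg3, Peg3 and Mest were each lost without any of 7 to 9 single libraries, and the count fell to as few as 2, Dlk1 and Grb10. Genotype and count table cannot be told apart within a state. In the interaction only a shift equal on the log2 scale in the control and senescent libraries of a table cancels. Whether any shift between the tables was of that kind was not tested.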

How the results depend on the processing

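Of 970 values for the 10 genes under the alternatives, 886 kept their direction and side of the threshold, 53 lost it, 16 gained it and 15 changed sign, all 15 in values that had not passed. Library totals without TMM moved the median of all genes to 0.194 in WT and 0.15 in KO. Under this setting Plagl1 changed sign in WT (0.09). Peg10 changed sign between senescent groups (-0.02), where the median of all genes was -0.053. The Ndn interaction became 0.02 with DESeq2, 0.02 with its size factors and 0.04 with WT control 3 and KO control 1 left out together, and ran from -0.07 to 0.01 over single omissions. Over single omissions Dlk1 between control groups ran from -0.04 to 0.26, H19 between senescent groups from -0.23 to 0.02 and Peg10 between senescent groups from -0.07 to 0.16. The number of DEGs among the 10 genes was 1 to 2 over single omissions in WT senescence, 0 to 3 in the interaction and 0 to 2 between control groups. It was 2 in WT senescence and 2 in the interaction with both libraries left out, 2 in the interaction on library totals and 0 between control groups with only those groups fitted. With no fold threshold it was 7, 9, 6, 5 and 3 in WT senescence, KO senescence, the interaction, control groups and senescent groups. Deviations from group means correlated across genes by -0.205 to 0.22 between same-numbered libraries of different groups and by -0.296 to 0.306 between other-numbered ones. Between same-numbered control and senescent libraries the values were 0.017, 0.11 and 0.185 in WT and -0.188, 0.129 and -0.205 in KO. With 3 libraries per group these values cannot decide whether the numbers mark a pairing. With a replicate block within each genotype the Meg3 interaction missed the threshold (-0.29, adjusted p = 0.0545), and with 1 replicate block over all groups Mest (-0.98, adjusted p = 0.0248) and Peg3 (0.45, adjusted p = 0.0269) passed between control groups and Peg3 (-0.36, adjusted p = 0.0423) between senescent groups. The cause of these changes was not tested. Depth limits Zim1, with 0 to 51 counts per library.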
